A study of Mus musculus with 12 samples.

Results

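The genes described here are 43 mouse genes of DNA replication and S phase, chosen by name and matched by symbol to the Ensembl gene identifiers of the count files. They are 43 of the 49671 genes listed per library, and all 43 passed the filter on low counts (more than 1 count in 3 or more libraries) that left 18668 genes to test. The cells were NIH 3T3, an immortalised line of mouse fibroblasts that stops dividing in low serum and responds to serum with a wave of transcription. Cells plated in serum-containing medium were transfected with control siRNA or with an siRNA against all isoforms of Lap2, the product of Tmpo, and total RNA was sequenced after rRNA removal. Each siRNA was studied in serum-starved cells (0.3% FBS) and in cells given 15% FBS for 45 min, which makes 4 groups of 3 libraries. All 12 libraries thus come from transfected cells of a single line, only 1 Lap2 siRNA was used, and no library comes from untransfected cells. The study made these libraries to ask how Lap2 affects serum-responsive transcription.

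Before a cell copies its DNA, the origin recognition complex, Cdc6 and Cdt1 load the ring-shaped Mcm helicase onto origins, a step called licensing. Kinases, Mcm10, Cdc45 and the GINS complex then activate the helicase, primase and the DNA polymerases synthesise the strands, the Pcna clamp and its loader keep the polymerases on DNA, and a further set of enzymes supplies nucleotides and repacks the new DNA into chromatin. Many of these genes are transcribed late in the interval before S phase by E2F factors, which the retinoblastoma protein family holds in check in resting cells. The nucleoplasmic isoform of Lap2 is known to bind A-type lamins and the retinoblastoma protein.

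The total count per library ran from 18026298 to 26265253. Tmpo, the targeted gene, had normalized counts of 2775, 2805 and 2885 with control siRNA and 982, 1175 and 1093 after Lap2 siRNA in 0.3% FBS, and 3264, 3243 and 3019 against 767, 745 and 607 in 15% FBS. Normalized counts are counts scaled to a common library size. The groups did not overlap, and Tmpo stood at 38.4% and 22.3% of control (two-sided exact permutation test, p = 0.1 in both, the smallest p that 3 against 3 libraries allow). All 10 fibroblast markers had a mean count of 10 or more. Their summed raw count, not scaled for library size, was 766267 to 993481 in the control siRNA libraries and 565892 to 648558 with Lap2 siRNA. By the test given below, 2 of the 10 were higher and 6 lower with Lap2 siRNA in 0.3% FBS (17.8% and 18.6% of all tested genes). In 15% FBS 1 was higher and 7 lower (11.4% and 12.1% of all tested genes). The part of these marker differences in the results below was not tested. The summed counts of 6 epithelial, 5 leukocyte, 4 endothelial and 4 muscle lineage markers stayed at or below 39 in every library. Of these, 1 epithelial marker had a mean count of 10 or more, and 0 leukocyte, endothelial or muscle lineage markers did. Cldn4, Cd3e, Itgam, Myod1 and Myog were at 0 in all 12 libraries.

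The promoters are described first, because E2F factors are known to act on many of these genes. Of the 43 members, 37 had a promoter in the RefSeq table (GRCm38.p6), which gives the 250 bases before and the 50 bases after each start. E2F-type words were searched as TTTCCCGC, TTTGGCGC, TTTCGCGC and TTTGCCGC on both strands, where words may share bases with each other. A word was found for 15 of the 37 members (40.5%), against 4.35% of the 11805 tested genes with a promoter and 2.26% of all 32851 promoters of this length. For 10 of these members a word lay wholly before the start. The 4 stretches of 100 bases below are those that lie outside the GENCODE M21 gene of the same name, and show the words, in capitals, where they stand before Mcm5 and Mcm6 (subunits of the helicase), Pola1 (catalytic subunit of DNA polymerase alpha) and E2f7 (an E2F repressor). Each is written 5′ to 3′ in the direction of the gene.
Mcm5, chr8:75109336-75109435, plus strand: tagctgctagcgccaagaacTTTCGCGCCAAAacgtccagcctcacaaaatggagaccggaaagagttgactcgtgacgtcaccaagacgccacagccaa
Mcm6, chr1:128359736-128359835, minus strand: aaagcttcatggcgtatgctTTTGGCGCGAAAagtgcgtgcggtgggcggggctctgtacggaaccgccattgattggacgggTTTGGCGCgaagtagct
Pola1, chrX:93632214-93632313, minus strand: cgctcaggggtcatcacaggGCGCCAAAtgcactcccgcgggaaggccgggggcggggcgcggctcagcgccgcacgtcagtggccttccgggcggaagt
E2f7, chr10:110745221-110745320, plus strand: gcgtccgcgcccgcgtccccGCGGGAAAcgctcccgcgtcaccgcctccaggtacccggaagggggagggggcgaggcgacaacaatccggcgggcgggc
In Mcm5 and Mcm6 the first run of capitals holds 2 words that share 4 bases, one on each strand, and Mcm6 has a further word at base -47 from the start. These matches are letters in a window and not measured binding. The word CCAAT was in the promoters of 24 of the 37 members (64.9%, against 42.6% of tested genes) and TTTGAA in 6 (16.2%, against 14.8%), both strands searched.

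In serum-starved cells, 40 of the 43 members were higher with Lap2 siRNA than with control siRNA (edgeR quasi-likelihood test, Benjamini-Hochberg adjusted p under 0.05) and 0 were lower. All 43 log2 fold changes were above 0, so that 0 were lower at an unadjusted p under 0.05 or with DESeq2 as well. Among all genes tested, 17.8% were higher and 18.6% lower. The median log2 fold change of the members was 0.84, a 1.79-fold rise, with values from 0.19 to 1.51, whereas the median over all tested genes was 0.01. In 39 members every Lap2 siRNA library lay above every control library, which held for 21.3% of all tested genes. The members not called were Rpa2, E2f1 and E2f2, and these 3 were called higher with scaling to total counts. The members together took 0.123% ± 0.00896 (SD, n = 3) of all counts with control siRNA and 0.237% ± 0.00255 (SD, n = 3) with Lap2 siRNA. In bulk RNA, a larger share of cells expressing these genes and more RNA per cell cannot be told apart.

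After 45 min of 15% FBS the log2 fold change of Lap2 siRNA over control siRNA was lower than in 0.3% FBS in all 43 members. With Lap2 siRNA 13 of 43 members were higher and 2 lower than with control siRNA, against 11.4% and 12.1% of all tested genes, and the median log2 fold change was 0.15 (0.02 over all genes). The groups did not overlap, with Lap2 siRNA higher, in 19 members, against 20.3% of all genes. The share of all tested genes that were higher in both serum conditions was not computed. The 13 members that were higher in both were Cdc6, Cdt1, Mcm2, Mcm3, Mcm7, Gins1, Gins2, Gins3, Pola1, Prim2, Rfc5, Fen1 and Tk1. Of these, Gins1 and Prim2 had adjusted p values of 0.045 and 0.048 in 15% FBS and each lost its call with DESeq2 and in 10 of 12 fits that left out a library. The calls of Cdc6 and Pola1 were lost in 3 of these fits each, and those of Mcm2 and Gins2 in 2 each. Without replicate 1 of the control libraries or replicate 3 of the Lap2 siRNA libraries in 15% FBS, 8 members were higher instead of 13.

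The difference between the effects in the 2 serum conditions was tested as an interaction. It was negative in all 43 members and past the threshold in 30, with 0 members past it in the other direction, against 6.51% and 7.09% of all tested genes. Its median was -0.70 on the log2 scale. The 13 members without a called interaction were Orc6, the 4 GINS genes, Prim2, Rfc3, Rfc4, Rfc5, Dut, Slbp, E2f1 and E2f2.

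**Figure D1:**
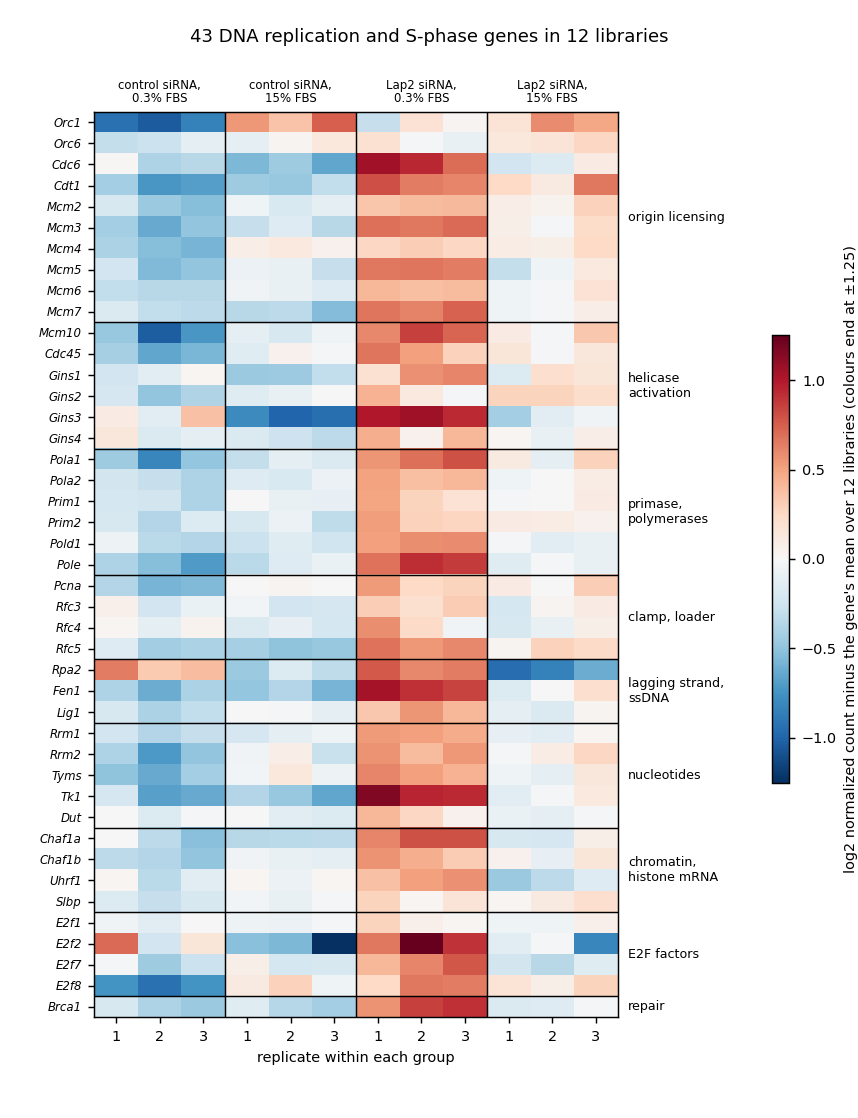
Heatmap of the 43 members (rows, by role) in the 12 libraries (columns, by group), coloured by the log2 normalized count minus the gene's mean over the 12 libraries. Orc1, Orc6 and Gins2 had their highest group means outside the libraries with Lap2 siRNA in 0.3% FBS.

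**Figure D2:**
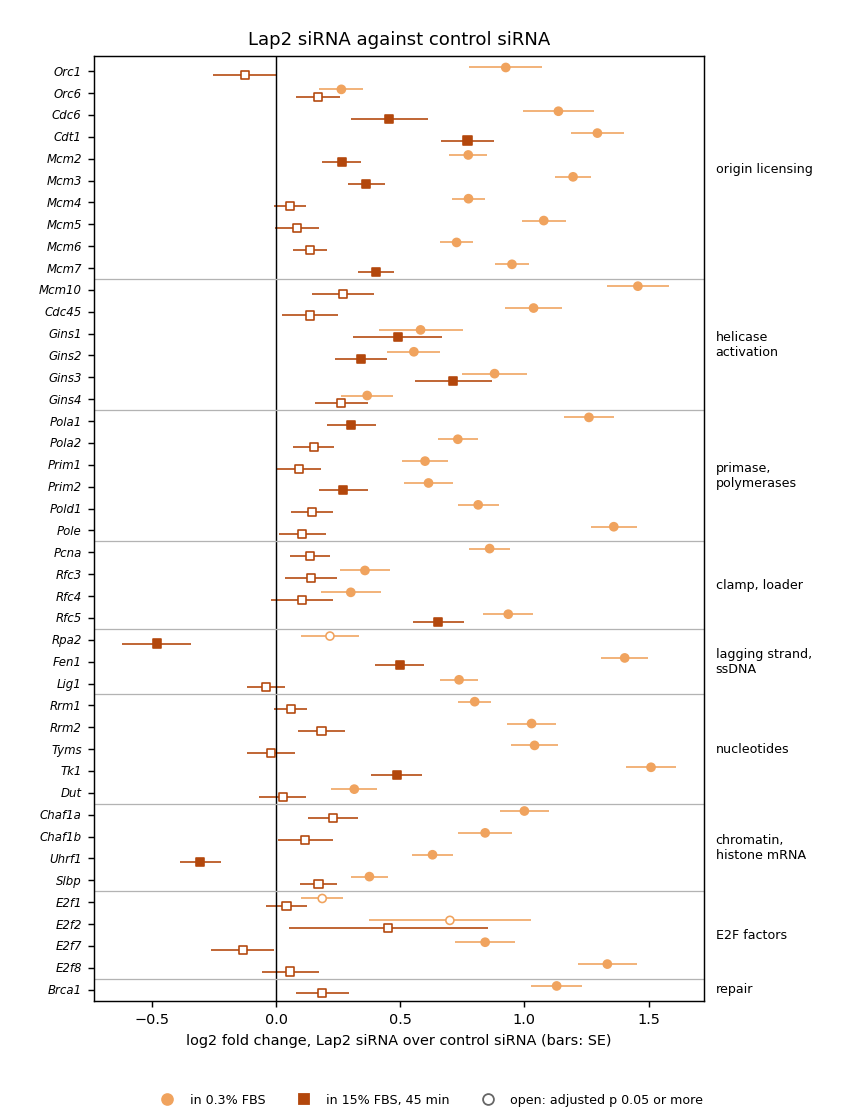
Log2 fold change of Lap2 siRNA over control siRNA for each member (bars, SE), in 0.3% FBS (circles) and in 15% FBS (squares), with filled symbols for an adjusted p under 0.05. Every circle lies to the right of its square, and Rpa2 and Uhrf1 are the filled squares below 0.

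The licensing genes showed the rise in all 10 members measured (median log2 fold change 0.94 in 0.3% FBS). Mcm3, a helicase subunit, had normalized counts of 982, 854 and 938 for control siRNA against 2124, 2086 and 2146 for Lap2 siRNA in 0.3% FBS, and 1079, 1175 and 1037 against 1384, 1309 and 1542 in 15% FBS. The groups were apart in both conditions, by a log2 fold change of 1.20 ± 0.07 (SE, adjusted p = 1.2e-14) and 0.36 ± 0.07 (adjusted p = 0.00033). Mcm7, a further subunit, had 1419, 1298 and 1286 against 2567, 2480 and 2685 in 0.3% FBS and 1268, 1284 and 1107 against 1552, 1582 and 1705 in 15% FBS. Its log2 fold changes were 0.95 ± 0.07 and 0.40 ± 0.07 (adjusted p = 7.5e-13 and 5.2e-05). The 6 Mcm subunits of the helicase ring rose by 0.73 (Mcm6) to 1.20 (Mcm3) in 0.3% FBS, and Mcm2, Mcm3 and Mcm7 were also higher in 15% FBS, while Mcm4, Mcm5 and Mcm6 had 0.06, 0.08 and 0.14 and were not called. Cdt1, the helicase loading factor, showed the largest difference of the role in both conditions, with 434, 354 and 364 against 1020, 907 and 892 in 0.3% FBS and 430, 419 and 471 against 693, 630 and 922 in 15% FBS (log2 fold changes 1.29 ± 0.11 and 0.77 ± 0.11, adjusted p = 1.2e-11 and 1.3e-06). Cdc6, its partner in loading, was higher by 1.14 ± 0.14 and 0.46 ± 0.16 (adjusted p = 5.7e-08 and 0.031).

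The subunits of the origin recognition complex, Orc1 and Orc6, had their highest group means outside the starved Lap2 siRNA libraries, as did only Gins2 among the other members. For Orc1, the largest subunit, normalized counts were 107, 98.8 and 113 with control siRNA in 0.3% FBS, 297, 260 and 341 with control siRNA in 15% FBS, 167, 231 and 208 with Lap2 siRNA in 0.3% FBS, and 230, 308 and 284 with Lap2 siRNA in 15% FBS. The starved control libraries were the lowest, and the 2 groups in 15% FBS overlapped. Orc1 was higher with Lap2 siRNA in 0.3% FBS by 0.93 ± 0.15 (adjusted p = 4.2e-06), whereas in 15% FBS the log2 fold change was -0.12 ± 0.13 (adjusted p = 0.57). Orc6, a small subunit of the same complex, had values of 533 to 602 with control siRNA and 614 to 747 with Lap2 siRNA in 0.3% FBS, a log2 fold change of 0.26 ± 0.09 (adjusted p = 0.019) that lost its call without replicate 1 of either group. Orc1 and Orc6 overlap antisense exons of Gm12743 and Vps35, as 13 other members overlap antisense exons of other genes (Mcm7, Cdc45, Gins2, Pole, Rfc4, Rfc5, Fen1, Lig1, Tk1, Chaf1a, Slbp, E2f7 and E2f8). The strand setting of the counting was not stated, and their values are uncertain to that extent.

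Of the factors that activate the helicase, Mcm10 and Cdc45 rose in 0.3% FBS and were not called in 15% FBS. Mcm10, which binds the helicase as it is activated, had 189, 128 and 159 against 398, 473 and 434 in 0.3% FBS and 243, 228 and 253 against 281, 258 and 331 in 15% FBS, log2 fold changes of 1.46 ± 0.12 (adjusted p = 2.2e-11) and 0.27 ± 0.12 (adjusted p = 0.12). Cdc45, a helicase cofactor, had 204, 173 and 183 against 431, 387 and 331 in 0.3% FBS and 245, 282 and 268 against 302, 269 and 301 in 15% FBS, log2 fold changes of 1.04 ± 0.11 (adjusted p = 4.9e-09) and 0.14 ± 0.11 (adjusted p = 0.46). The groups in 15% FBS overlapped for Cdc45 but not for Mcm10. The 4 GINS genes, which encode the subunits of 1 complex, rose by 0.37 to 0.88 in 0.3% FBS, and Gins1, Gins2 and Gins3 were higher by 0.34 to 0.71 in 15% FBS. Gins3 had 159, 135 and 190 against 297, 308 and 282 in 0.3% FBS and 85.2, 74.2 and 77.0 against 110, 135 and 143 in 15% FBS (0.88 ± 0.13 and 0.71 ± 0.16, adjusted p = 1.5e-06 and 0.00067). Both siRNA groups of Gins3 were lower in 15% FBS, and the siRNA groups did not overlap in either condition.

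All 6 primase and polymerase genes rose in 0.3% FBS, by 0.60 (Prim1) to 1.36 (Pole). Pole, the catalytic subunit of the leading-strand polymerase, had 435, 394 and 347 against 907, 1078 and 1040 in 0.3% FBS (1.36 ± 0.09, adjusted p = 1.1e-13). In 15% FBS it had 450, 509 and 536 against 511, 560 and 534, groups that overlapped (0.10 ± 0.10, adjusted p = 0.50). Pola1 had 517, 400 and 505 against 1036, 1139 and 1226 in 0.3% FBS and 572, 654 and 625 against 764, 653 and 863 in 15% FBS. Its log2 fold changes were 1.26 ± 0.10 (adjusted p = 3e-12) and 0.30 ± 0.10 (adjusted p = 0.023), with a slight overlap in 15% FBS. Pola1 and Prim2 were the only genes of the role called in 15% FBS, and both calls were lost in some fits without 1 library, as given above.

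The clamp and its loader rose by 0.30 to 0.94 in 0.3% FBS. Pcna, the sliding clamp, had 1126, 970 and 995 against 2111, 1725 and 1768 in 0.3% FBS and 1448, 1490 and 1453 against 1561, 1461 and 1802 in 15% FBS (0.86 ± 0.08 and 0.14 ± 0.08, adjusted p = 2.5e-10 and 0.26). The loader subunits were uneven. Rfc5 had 310, 256 and 263 against 556, 502 and 525 in 0.3% FBS and 259, 244 and 250 against 354, 423 and 408 in 15% FBS (0.94 ± 0.10 and 0.65 ± 0.10, adjusted p = 2.8e-09 and 1e-05), with groups apart in both. Rfc3 rose by 0.36 ± 0.10 (adjusted p = 0.0046) in 0.3% FBS. Rfc4, at 0.30 ± 0.12, had an adjusted p of 0.048 and overlapping groups, and lost its call with DESeq2 and in 10 of 12 fits that left out a library. Pcna, like Tyms below, has named pseudogenes to which its reads could have been split.

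Of the genes of the lagging strand and of single-stranded DNA, Fen1 and Lig1 rose in 0.3% FBS and Rpa2 was not called. Fen1, the nuclease that trims flaps between new fragments, had 438, 373 and 435 against 1180, 1082 and 1028 in 0.3% FBS and 409, 445 and 384 against 511, 572 and 664 in 15% FBS (1.40 ± 0.09 and 0.50 ± 0.10, adjusted p = 7.6e-14 and 0.00019). Lig1, the ligase that seals them, had 1093, 950 and 1011 against 1584, 1831 and 1673 in 0.3% FBS (0.74 ± 0.08, adjusted p = 1.2e-09) and 1245, 1235 and 1159 against 1151, 1105 and 1286 in 15% FBS (-0.04 ± 0.08, adjusted p = 0.80). Rpa2, a subunit of the single-stranded DNA binding complex, had 297, 239 and 249 against 325, 289 and 298 in 0.3% FBS, groups that overlapped (0.22 ± 0.12, adjusted p = 0.16). There, Rpa2 was called higher with total-count scaling (0.326) and without replicate 1 of the starved control libraries (0.331). In 15% FBS it had 138, 169 and 153 against 98.2, 106 and 124, so that the Lap2 siRNA libraries were the lowest of the 12 (-0.48 ± 0.14, adjusted p = 0.0099). That lower call was lost without replicate 1 of the Lap2 siRNA libraries or replicate 2 of the control libraries in 15% FBS.

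All 5 genes of nucleotide supply rose in 0.3% FBS, with a median of 1.03. Tk1, the thymidine kinase of S phase, showed the largest log2 fold change of the 43 members. It had 609, 441 and 458 against 1576, 1365 and 1351 in 0.3% FBS (1.51 ± 0.10, adjusted p = 5.1e-14), a 2.85-fold rise. In 15% FBS it had 548, 508 and 452 against 647, 696 and 771 (0.49 ± 0.10, adjusted p = 0.00049), and the groups were again apart. Rrm1, the large subunit of ribonucleotide reductase, had 1627, 1488 and 1576 against 2784, 2732 and 2648 in 0.3% FBS and 1657, 1762 and 1845 against 1790, 1738 and 1951 in 15% FBS (0.80 ± 0.07 and 0.06 ± 0.07, adjusted p = 1.2e-11 and 0.61). Rrm2, the small subunit, and Tyms, which makes thymidylate, rose by 1.03 ± 0.10 and 1.04 ± 0.10 in 0.3% FBS, and Dut, which removes dUTP, by 0.32 ± 0.09. None of these 3 was called in 15% FBS (0.18, -0.02 and 0.03).

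The chromatin genes rose together in 0.3% FBS and parted in 15% FBS. Chaf1a, the large subunit of the chromatin assembly factor, had 658, 523 and 458 against 1003, 1142 and 1140 in 0.3% FBS and 518, 520 and 525 against 572, 567 and 691 in 15% FBS (1.00 ± 0.10 and 0.23 ± 0.10, adjusted p = 4.7e-10 and 0.11). Its partner Chaf1b had 204, 198 and 182 against 378, 352 and 319 in 0.3% FBS and 249, 241 and 238 against 267, 240 and 284 in 15% FBS (0.84 ± 0.11 and 0.12 ± 0.11, adjusted p = 1.2e-07 and 0.52). Uhrf1, which recruits the maintenance DNA methyltransferase to new DNA, had 1590, 1239 and 1415 against 2017, 2224 and 2324 in 0.3% FBS (0.63 ± 0.08, adjusted p = 1.2e-07). In 15% FBS the order turned, with 1586, 1491 and 1586 against 1132, 1244 and 1394 and no overlap (-0.30 ± 0.08, adjusted p = 0.0060). Uhrf1 was the only member called in opposite directions in the 2 serum conditions, and without replicate 1 of the Lap2 siRNA libraries in 15% FBS its lower call was lost. Slbp, which binds the stem-loop of histone mRNA, rose by 0.38 ± 0.07 (adjusted p = 8.4e-05) in 0.3% FBS.

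Among the E2F genes, the repressors E2f7 and E2f8 rose, whereas the activators E2f1 and E2f2 did not pass the test. E2f8 had 192, 170 and 193 against 385, 512 and 504 in 0.3% FBS and 349, 395 and 311 against 365, 341 and 392 in 15% FBS (1.33 ± 0.12 and 0.06 ± 0.11, adjusted p = 4.3e-11 and 0.79). E2f7 had 250, 185 and 209 against 337, 387 and 432 in 0.3% FBS and 266, 218 and 220 against 216, 198 and 228 in 15% FBS (0.84 ± 0.12 and -0.13 ± 0.13, adjusted p = 8.5e-07 and 0.53). Both pairs were apart in 0.3% FBS and overlapped in 15% FBS. E2f1 had 609, 571 and 631 against 762, 657 and 637 in 0.3% FBS, which did not overlap but gave a log2 fold change of 0.19 ± 0.08 (adjusted p = 0.083). It was called higher with total-count scaling (0.295) and without replicate 3 of the starved Lap2 siRNA libraries (0.247). E2f2 was the least abundant member, with 17.3 to 33.4 against 32.1 to 48.9 in 0.3% FBS (0.70 ± 0.33, adjusted p = 0.094) and was called without replicate 1 of the starved control libraries (1.01) and with total-count scaling (0.81). Brca1, the repair gene, had 360, 316 and 301 against 612, 750 and 781 in 0.3% FBS (1.13 ± 0.10, adjusted p = 8.3e-11) and 374, 323 and 309 against 366, 370 and 409 in 15% FBS, groups that overlapped (0.19 ± 0.11, adjusted p = 0.24).

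**Figure D3:**
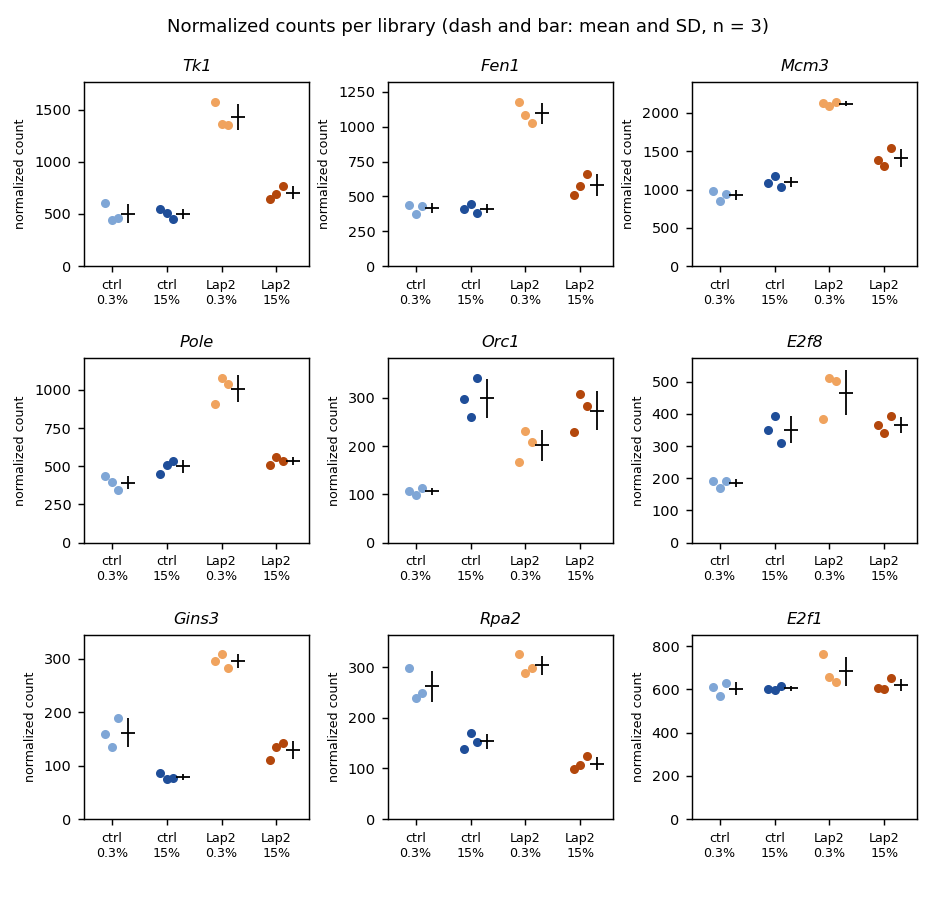
Normalized counts of 9 members in each library by siRNA and FBS (points), with the group mean and SD beside them (n = 3). Tk1, Fen1, Mcm3 and Pole stand highest with Lap2 siRNA in 0.3% FBS, Orc1 does not, and E2f1 varies little between groups.

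The response to 45 min of serum differed between the siRNAs. With control siRNA, 17 of 43 members were higher in 15% FBS than in 0.3% FBS and 3 were lower, against 15.6% and 13.9% of all tested genes, and the median log2 fold change was 0.17. With Lap2 siRNA, 1 member was higher and 36 were lower, against 18.3% and 14.9% of all tested genes, with a median of -0.42. The Lap2 siRNA groups did not overlap, with 15% FBS lower, in 32 members, against 19.1% of all genes. The starved Lap2 siRNA libraries enter both this comparison and the comparison of the siRNAs in 0.3% FBS. The rise with control siRNA depended on the scaling. Scaling libraries to their total counts moved the median over all tested genes to -0.21 with control siRNA and -0.23 with Lap2 siRNA. For Lap2 siRNA in 0.3% and 15% FBS it moved to 0.12 and 0.10. With control siRNA that scaling gave 8 members higher and 12 lower, against 1632 and 5847 of all 18668 tested genes. The median of the members was then -0.04. With Lap2 siRNA that scaling gave 0 members higher and 40 lower, against 1658 and 5951 of all tested genes. Upper-quartile normalization moved the median over all genes to -0.10 and -0.11. With control siRNA it gave 10 members higher and 6 lower, against 2183 and 3878 of all tested genes. The median of the members was then 0.07.

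The largest rise with control siRNA was that of Orc1, at 1.49 ± 0.14 (adjusted p = 1.7e-10), followed by E2f8 at 0.93 ± 0.12 (adjusted p = 1.2e-07), Mcm10 at 0.61 ± 0.13 (adjusted p = 0.00038) and Mcm4 at 0.59 ± 0.07 (adjusted p = 8.5e-09). With Lap2 siRNA, Orc1 was the only member that rose (0.45 ± 0.13, adjusted p = 0.0087), and this call was lost with total-count scaling, with upper-quartile scaling, without replicate 1 of the Lap2 siRNA libraries in 0.3% FBS (0.31) and without replicate 2 of those in 15% FBS (0.355). The 14 members that rose with control siRNA and fell with Lap2 siRNA were Mcm2, Mcm3, Mcm5, Mcm6, Mcm10, Cdc45, Pola1, Pole, Pcna, Lig1, Rrm2, Tyms, Chaf1b and E2f8. The share of all tested genes with both of these calls was not computed. Taken singly, 15.6% of them rose with control siRNA and 14.9% fell with Lap2 siRNA. With total-count scaling 8 of these 14 lost their rise with control siRNA (Mcm2, Mcm3, Mcm5, Mcm6, Pola1, Pole, Lig1 and Chaf1b), and with upper-quartile scaling 6 did, the same genes without Pola1 and Pole. For Pole the log2 fold changes were 0.34 ± 0.10 and -0.91 ± 0.09 (adjusted p = 0.0059 and 6.5e-10) and the interaction was -1.25 ± 0.13 (adjusted p = 1.9e-08), while its rise with control siRNA lost its call with total-count scaling (0.13) and without replicate 3 of the starved control libraries (0.28). Tk1 and Fen1 were level with control siRNA (0.00 ± 0.10 and -0.01 ± 0.10) and fell by 1.02 and 0.91 on the log2 scale with Lap2 siRNA (adjusted p = 2.4e-10 and 8.7e-10). For Lap2 siRNA in 15% FBS, 37 of 43 members had a positive log2 fold change, and 13 of these were called higher. The median was 0.15 for the members and 0.02 over all tested genes. The share of all tested genes above 0 was not computed.

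Gins3, Rpa2 and E2f2 were lower after serum with both siRNAs. Gins3 changed by -1.02 ± 0.15 and -1.19 ± 0.14 (adjusted p = 1.4e-06 and 1.1e-08), and its interaction of -0.17 ± 0.20 was not called (adjusted p = 0.68). Rpa2 changed by -0.77 ± 0.13 and -1.47 ± 0.13 (adjusted p = 7.6e-06 and 4.9e-11), and its interaction was -0.70 ± 0.18 (adjusted p = 0.0077). E2f2 changed by -1.0 ± 0.38 and -1.25 ± 0.35 (adjusted p = 0.043 and 0.0047), and its call with control siRNA was lost with DESeq2, in the fit of the compared groups alone and in 6 of 12 fits that left out a library (log2 fold changes of -1.19 to -0.70 over the 12). In Gins3, Rpa2 and E2f2 the libraries in 15% FBS lay below those in 0.3% FBS for each siRNA, with no overlap, although E2f2 had few counts.

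**Figure D4:**
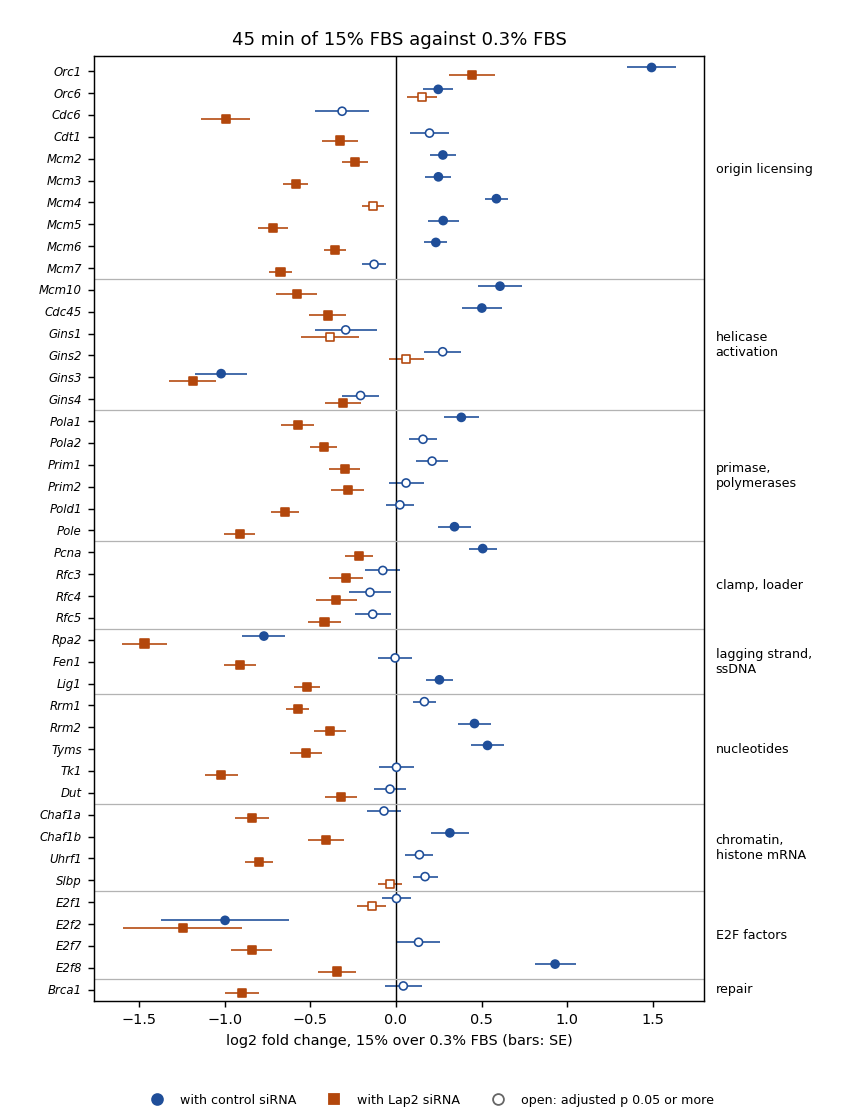
Log2 fold change of 15% over 0.3% FBS for each member (bars, SE), with control siRNA (circles) and with Lap2 siRNA (squares), with filled symbols for an adjusted p under 0.05. All squares lie to the left of their circles, and Orc1 is the only filled square above 0.

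Per kilobase of exon, the most abundant members in starved control cells were Mcm4 (501 ± 34.2, SD, n = 3), Pcna (429 ± 34.9) and Mcm6 (370 ± 5.44) in normalized counts per kilobase, and the least abundant was E2f2 (5.01 ± 1.67). Mcm4 and Pcna, and Pcna and Mcm6, were each separated by more than the larger of their SDs. The same 3 genes led with Lap2 siRNA in 0.3% FBS, at 857 ± 14.3, 778 ± 88.2 and 613 ± 9.55. There, Mcm4 and Pcna differed by less than the SD of Pcna. In 2 groups most members had their highest value in the same library: 34 of 43 in replicate 1 of the starved control group, and 34 in replicate 3 of the Lap2 siRNA group in 15% FBS. The highest values were spread as 15, 15 and 13 members over replicates 1 to 3 of the control group in 15% FBS, and as 23, 10 and 10 with Lap2 siRNA in 0.3% FBS. The mean log2 CPM of the members was 4.42, 4.19 and 4.28 in the starved control libraries and 4.55, 4.58 and 4.72 in the Lap2 siRNA libraries in 15% FBS, against 5.15, 5.13 and 5.10 with Lap2 siRNA in 0.3% FBS. Without replicate 1 of the starved control group, 38 of the 40 members called higher with Lap2 siRNA in 0.3% FBS kept their call.

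The members with and without an E2F-type word in their promoter were set side by side as a description, with no test. The median log2 fold change for Lap2 siRNA in 0.3% FBS was 0.88 over the 15 members with a word (0.36 to 1.29, 14 called higher) and 0.85 over the 22 without (0.19 to 1.51, 20 called higher). The medians after serum with Lap2 siRNA were -0.65 and -0.40. Tk1, Fen1 and Mcm10, which showed large rises, held none of the 4 words in their windows.

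Lists of related genes were set beside the members. Of 59 further replication genes, 43 were higher, 16 not called and 0 lower with Lap2 siRNA in 0.3% FBS. That is 72.9% higher, against 17.8% of all tested genes. The median was 0.46, and 0 were lower at an unadjusted p under 0.05 or with DESeq2. The rises were led by Asf1b, a histone chaperone (1.54 ± 0.12), the helicase Recql4 (1.53 ± 0.15) and the recombination factor gene Rad51ap1 (1.41 ± 0.14). In 15% FBS 14 were higher and 1 lower, that is 23.7% and 1.69% against 11.4% and 12.1% of all tested genes. Of these, Mcm8, a helicase gene (0.80 ± 0.16), and the nuclease and helicase gene Dna2 (0.66 ± 0.22) had the largest differences. After serum with Lap2 siRNA, 39 of the 59 were lower and 5 higher, that is 66.1% and 8.47% against 14.9% and 18.3% of all tested genes. E2F-type words were in 15 of the 46 promoters found for this list (32.6%).

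Among 31 regulators of entry into S phase, 16 were higher and 1 lower with Lap2 siRNA in 0.3% FBS. That is 51.6% and 3.23% against 17.8% and 18.6% of all tested genes. The E-type cyclin genes Ccne2 and Ccne1 (1.60 ± 0.14 and 1.11 ± 0.10) and Fbxo5, an inhibitor of the anaphase-promoting complex (1.15 ± 0.11), showed the largest rises. The D-type cyclin gene Ccnd3 was the 1 called lower (-0.25 ± 0.06, adjusted p = 0.0014). The lowest log2 fold change of the list, -4.02, was not called. In 15% FBS 13 were higher and 4 lower, that is 41.9% and 12.9% against 11.4% and 12.1% of all tested genes. Ccne2 (0.79 ± 0.15), Fbxo5 (0.54 ± 0.13) and the phosphatase gene Cdc25a (0.49 ± 0.10) led the rises. The lowest among the called genes were Ccnd1 (-0.69 ± 0.11), Ccnd2 (-0.58 ± 0.07) and Cdk6 (-0.41 ± 0.10), and the lowest value of the list, -1.18, was not called. The interaction was called negative in 11 and positive in 1 of the 31, that is 35.5% and 3.23% against 6.51% and 7.09% of all tested genes.

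Of 30 mitosis genes, all 30 were higher with Lap2 siRNA in 0.3% FBS (median 0.94), against 17.8% of all tested genes. All 30 were lower after serum with Lap2 siRNA (median -0.67) and had a called negative interaction, against 14.9% and 6.51% of all tested genes. Mki67, a proliferation marker (1.43 ± 0.07), the checkpoint kinase genes Ttk (1.37 ± 0.13) and Bub1 (1.29 ± 0.09) rose most. In 15% FBS 14 were higher and 3 lower, that is 46.7% and 10.0% against 11.4% and 12.1% of all tested genes. Cdc20 (0.51 ± 0.07), Bub1b (0.43 ± 0.08) and Ttk (0.41 ± 0.14) led the rises. The 3 lower genes were the mitotic kinase gene Cdk1 (-0.53 ± 0.08), the factor gene Foxm1 (-0.43 ± 0.09) and Cenpf (-0.32 ± 0.09). The promoters of this list differed in their words: 1 of 25 held an E2F-type word (4.0%), whereas TTTGAA was in 17 (68.0%) and CCAAT in 18 (72.0%). The rise with Lap2 siRNA in starved cells was thus also measured in every mitosis gene of this list.

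**Figure D5:**
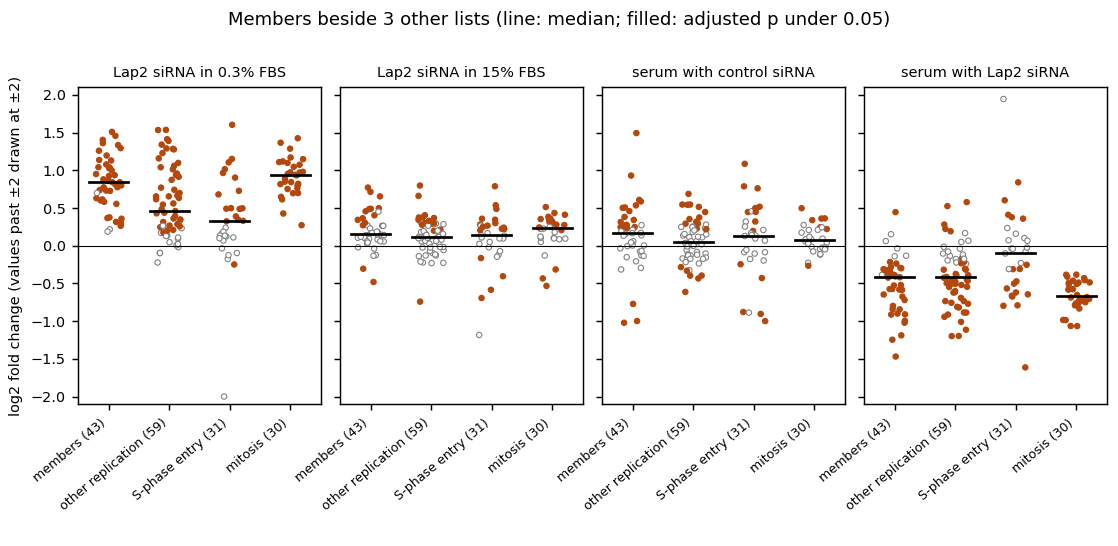
Log2 fold changes of the members beside the 3 other lists (points, 1 per gene; line, median; filled, adjusted p under 0.05) in the 4 comparisons. In 0.3% FBS the medians with Lap2 siRNA were 0.84 for the members, 0.46, 0.32 and 0.94 for the other lists, and Cdkn1c is drawn at the edge.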

How the data were processed

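RNA-seq of NIH 3T3 cells gave 12 libraries, placed in 4 groups of 3 by the siRNA and serum in their labels, and the 45 min of stimulation was taken from the study's text. The deposited values are raw, unnormalized read counts for each gene, obtained by the authors with TopHat2 (default settings, mm10) and HTSeq. Versions, annotation and strand setting of the counting are not given in the sources used here, and the library kit keeps strand. Nothing in the labels says that replicates were separate cultures, so p-values measure only the spread between these samples, which may be technical.

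Tests used edgeR 4.0.16 (R 4.3.3): after TMM normalization, 1 quasi-likelihood model with 4 group means was fitted to 18668 genes (more than 1 count in 3 or more libraries), and p-values were adjusted by Benjamini-Hochberg over all of these genes, with a threshold of 0.05. SEs were derived from the F statistic, and log2 CPM used a prior count of 2. On simulated counts of 18105 genes for Lap2 siRNA in 0.3% FBS, 100% of 200 genes changed by a log2 fold change of 1 were recovered, and 10 unchanged genes were called. The changed genes were drawn only from genes with higher mean counts. Recovery was thus not measured for smaller changes or for genes with few counts, such as E2f2. The changed genes were split evenly between up and down, and no other gene differed between groups. In the data 17.8% of tested genes were higher and 18.6% lower in this comparison. The simulation thus did not test how the scaling behaves when many genes change. Exon lengths came from GENCODE M21 and promoters from RefSeq. Tables and figures used Python 3.11.15.

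The members and gene lists were chosen with earlier results of these data known. Values in every library are given for the 2 members of each role with the lowest adjusted p for Lap2 siRNA and for members that went against their role, and those of Cdt1 were added after its values were seen. From the lists of other replication genes, S-phase entry regulators and mitosis genes, the 3 largest called log2 fold changes in each direction are named for each Lap2 siRNA comparison, apart from some results that are not reported here. Alternatives were DESeq2 1.42.0, total-count and upper-quartile scaling, other low-count filters, a fit to the compared groups alone, a replicate block, and leaving out each library.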

Additional observations from a re-analysis of the deposited data

Results flagged for a closer look

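For 30 of the 43 members the effect of Lap2 siRNA differed between the serum conditions by the test of the difference itself (the interaction, edgeR's quasi-likelihood test), with adjusted p values from 1.9e-08 to 0.027. The value is the log2 fold change of Lap2 siRNA over control siRNA in 15% FBS minus that in 0.3% FBS. Each of these differences was below 0: E2f8 (-1.28), Pole (-1.25), Mcm10 (-1.19), Tyms (-1.06), Orc1 (-1.05), Tk1 (-1.02), Mcm5 (-1.0), E2f7 (-0.98), Pola1 (-0.96), Brca1 (-0.94), Uhrf1 (-0.93), Fen1 (-0.91), Cdc45 (-0.90), Rrm2 (-0.85), Mcm3 (-0.83), Lig1 (-0.78), Chaf1a (-0.77), Rrm1 (-0.74), Mcm4 (-0.72), Pcna (-0.72), Chaf1b (-0.72), Rpa2 (-0.70), Cdc6 (-0.68), Pold1 (-0.67), Mcm6 (-0.59), Pola2 (-0.58), Mcm7 (-0.55), Cdt1 (-0.52), Prim1 (-0.51) and Mcm2 (-0.51). The call of Cdc6 was lost in 5 of 12 fits that left out a library, and that of Cdt1 in 3 of 12.

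The same held for 16 of the genes named from the other lists, with adjusted p values from 8.7e-09 to 0.012: Recql4 (-1.24), Rad51ap1 (-1.22), Asf1b (-1.16), Mki67 (-1.04), Ccnd1 (-1.02), Ttk (-0.96), Cenpf (-0.96), Bub1 (-0.93), Foxm1 (-0.86), Ccne2 (-0.82), Ccne1 (-0.81), Cdk1 (-0.80), Bub1b (-0.68), Fbxo5 (-0.61), Cdc20 (-0.47) and Ccnd2 (-0.41). Among all tested genes the interaction was called negative in 6.51% and positive in 7.09%. The genes from the other lists were named for their large called effects of Lap2 siRNA in either serum condition of these data. That choice favours a difference between the conditions, so these 16 calls are not independent evidence of it. The named genes Mcm8, Dna2, Ccnd3, Cdc25a and Cdk6 were not among the 16. No group had enough libraries to test for a single outlying sample.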

How the results depend on the processing

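The counts of members called higher or lower moved as follows. Scaling to total counts gave 23 members higher with Lap2 siRNA in 15% FBS (13 in the reported fit), 8 higher and 12 lower with serum and control siRNA (17 and 3), and 0 higher with serum and Lap2 siRNA (1). Over all 18668 tested genes, total-count scaling gave 3471 higher with Lap2 siRNA in 15% FBS (2125 in the reported fit). It gave 1632 higher and 5847 lower with serum and control siRNA (2915 and 2597). With upper-quartile scaling, 10 members were higher and 6 lower with serum and control siRNA, against 2183 and 3878 of all tested genes. That scaling gave 0 members higher with serum and Lap2 siRNA. Leaving out each library in turn gave 38 to 41 members higher with Lap2 siRNA in 0.3% FBS, 8 to 14 higher and 0 to 2 lower in 15% FBS, 13 to 21 higher and 2 to 3 lower with serum and control siRNA, 0 to 1 higher and 29 to 36 lower with serum and Lap2 siRNA, and 28 to 31 lower in the interaction. Same-numbered libraries did not deviate together (correlations across genes of -0.122 to 0.099, 0 of 18 above 0.1), so the numbers were not taken as pairs. With the replicate block, 40 members were higher with Lap2 siRNA in 0.3% FBS and 13 in 15% FBS, and 30 were lower in the interaction. The block lost no call of a member and added 1, with serum and control siRNA. Of 4257 values of single members under the alternatives, 131 lost and 61 gained a call, 66 uncalled values changed sign, and no called value changed sign. The depth was 18026298 to 26265253 counts per library, and E2f2 was the member with the fewest counts.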
